A study of Homo sapiens with 9 samples.

Results

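The comparison described here sets U251 cells transfected with an siRNA (small interfering RNA) that targets WT1 beside U251 cells that received the transfection reagent alone. It used 6 of the 9 arrays of the study: those titled for the WT1 siRNA and those titled as reagent controls, each with the number 1, 2 or 3, and differences were taken between arrays with the same number. U251 is an established human glioma line. All 3 groups were exposed to the reagent Oligofectamine. The first group received it with an siRNA against WT1 at 100 nM, the second with a non-targeting (scrambled) siRNA at 100 nM, and the third without any siRNA, and each group had 3 cultures. After transfection the plates stayed on a rocker for 4 hours before medium was added, and 5 ug of total RNA was labelled. No source used here gives the time from transfection to harvest. The siRNA groups differ from the reagent group in the presence of an siRNA as well as in its target, and these cannot be told apart within this comparison. The values with scrambled siRNA are therefore printed for ADGRE5 and for the called genes among the 15 lowest, the 15 highest and the gene lists. For called genes outside these they are given for ZBTB20 only. The labels call the arrays biological triplicates and the wells were plated in triplicate, so p-values measure the spread between these cultures once differences shared by a number have been removed.

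WT1 encodes a zinc finger transcription factor that is needed for the development of the kidney and gonads and can activate or repress its targets. It is expressed in many gliomas and in few cells of the normal brain. An siRNA is loaded into an Argonaute protein and leads to cleavage of transcripts that match it, and it can also lower other transcripts through a short match to its seed. The siRNA sequences were not used here.

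Expression was measured with Affymetrix arrays on the log2 scale, and a difference of 1 on that scale is a factor of 2. Array medians lay between 6.45 and 6.53, so the scale of the arrays was alike. The difference between 3' and 5' control probe sets of actin, a measure of RNA integrity, was 0.08, 0.55 and 0.26 on WT1 siRNA arrays 1 to 3 and 0.09, 0.62 and 0.50 on reagent arrays 1 to 3. It moved more with the number than with the treatment, and its part in the results was not tested. Of 11 measured markers of glioma and mesenchymal glial cells, 0 were called and their summed level was 14.9 to 15.1 (log2) in both groups. Markers of epithelial cells, leukocytes, endothelial cells, neurons and oligodendrocytes had 0 called members. Of these, 5 of 10, 3 of 10, 3 of 9, 2 of 10 and 4 of 8 lay below the lower quartile of levels on every array. The summed epithelial level was 10.4 to 10.9 with the WT1 siRNA against 10.8 to 10.9 with reagent.

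WT1 was the transcript with the deepest fall. It read 4.76, 5.09 and 4.82 with the WT1 siRNA on arrays 1 to 3 and 6.05, 6.58 and 5.89 with reagent. The groups did not overlap, and the fall was present under each number. WT1 fell by 1.29 (SE 0.0811, n = 3 per group, limma adjusted p = 0.000619), which left 41.0% of the reagent level. On WT1 siRNA arrays 1 to 3, 18.4%, 26.5% and 19.9% of probe sets read at or below WT1. On reagent arrays 1 to 3 the shares were 43.0%, 51.8% and 42.0%. So near the low end of the scale, 41.0% is a ratio of array readings and not a measured share of remaining transcript. With scrambled siRNA it read 5.59, 5.89 and 5.41, between the other groups under every number, and fell by 0.55 against reagent (adjusted p = 0.0164). A second WT1 probe set differed by -0.15 (adjusted p = 0.516), with levels of 4.92, 4.83 and 5.06 against 5.21, 5.05 and 5.00. It read low in both groups (percentile 25.1 of mean levels), so its small difference says little about WT1.

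Across the array 277 of 22215 probe sets (1.25%) were called at an adjusted p under 0.05, 91 higher and 186 lower with the WT1 siRNA. The higher calls were 32.9% of all calls, and 21.1% (71 of 337) when each array was first centred on its median. Among probe sets with exactly 1 gene symbol, 260 were called, which stood for 227 genes: 154 lower, 73 higher and 0 both ways. Most changes were small. The median absolute change of the called probe sets was 0.44, a factor of 1.35, and the lowest was a factor of 1.22. A change over 2-fold was found for WT1, CILK1 and INPP5A, all lower. The median over all genes was 0.01. All 260 probe sets had the same sign in the 3 numbered pairs, which 35% of all such probe sets had, and 134 of the 260 did not overlap between the groups, as 1083 of all 19064 did not (5.88% of genes by the brightest probe set). The 260 were chosen by their p, so their even signs and separation are partly built in. The median of the lower calls was -0.41, -0.45 and -0.47 in pairs 1 to 3, and that of the higher calls 0.43, 0.45 and 0.39.

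The calls depended on the fit, and what the replicate number stands for (a day, a plate or a passage) is not stated in the labels. They came from a limma model of all 9 arrays with the replicate number as a block, in which the scrambled siRNA arrays add to the estimate of the spread. Without the replicate block 0 probe sets were called (616 at an unadjusted p under 0.05, against 3359 with the block). With the 6 arrays alone and the block 3 were called, INPP5A, CILK1 and WT1. Leaving out 1 array at a time gave between 6 calls (without reagent array 2) and 465 calls (without WT1 siRNA array 1). The 6 calls without reagent array 2 were CD2AP, IGFBP5, INPP5A, ISCA1, NKAPD1 and WT1, and they passed in all 9 leave-one-array fits. Without WT1 siRNA array 2, reagent array 1 and reagent array 3 there were 44, 92 and 98 calls. Below, "held in 8 of 9" means that a call passed in 8 of these 9 fits.

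**Figure D1:**
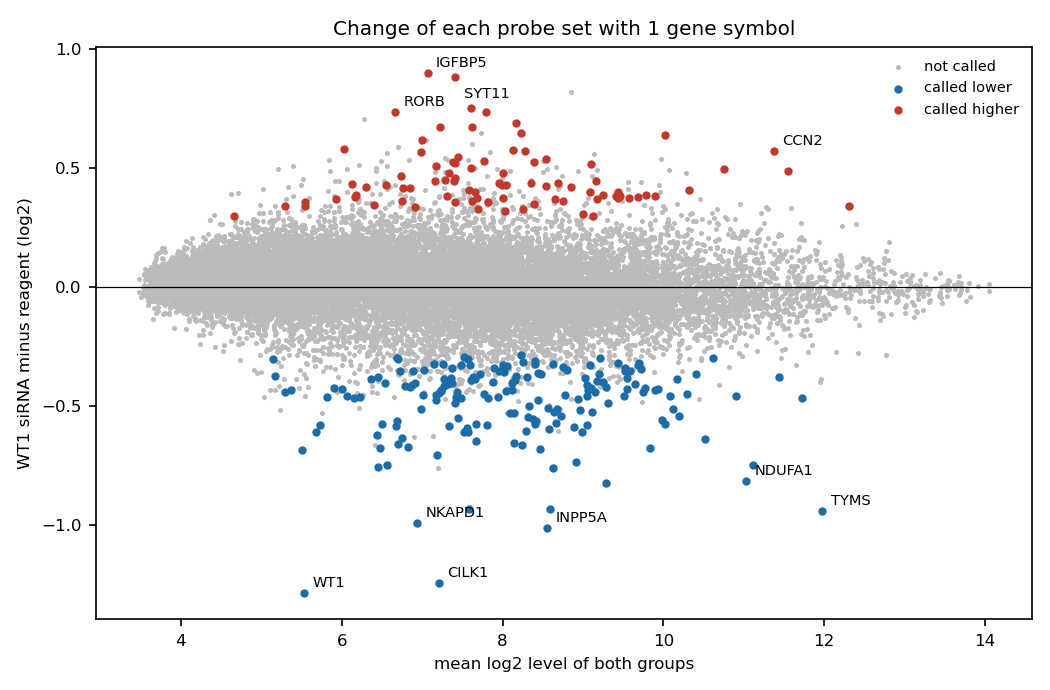
Difference between WT1 siRNA and reagent (log2, y axis) of every probe set with 1 gene symbol against its mean log2 level over both groups (x axis), from the paired fit. Called probe sets, 174 lower in blue and 86 higher in red, lie mostly within 1 log2 unit of 0, with WT1, CILK1 and INPP5A below -1.

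Of the 15 genes with the deepest falls, several act in signalling at the membrane or at the cilium. CILK1, a kinase that acts in the primary cilium, read 6.56, 6.45 and 6.75 against 7.59, 7.90 and 8.01 with reagent and fell by 1.25 (SE 0.167, adjusted p = 0.0115). All WT1 siRNA arrays lay below all reagent arrays, and the call held in 6 of 9 fits. With scrambled siRNA CILK1 read 6.76, 7.77 and 7.77: array 1 lay near the WT1 siRNA level and the others near reagent. INPP5A, a phosphatase that ends the inositol trisphosphate signal, read 8.05, 8.15 and 7.95 against 9.18, 9.14 and 8.87. The arrays of each group lay close together, without overlap, and INPP5A fell by 1.01 (SE 0.0663, adjusted p = 0.000619, held in 9 of 9). Scrambled siRNA moved INPP5A the other way, to 9.54, 9.60 and 9.20 (0.38 above reagent, adjusted p = 0.0299). PDGFD, a secreted ligand of the PDGF beta receptor, read 7.36, 7.08 and 6.91 against 8.04, 8.0 and 8.11. No array of either group crossed into the other, and PDGFD fell by 0.93 (SE 0.116, adjusted p = 0.00884, held in 7 of 9). CD2AP, an adaptor between membrane proteins and actin that is best known from kidney podocytes, read 8.02, 8.54 and 8.18 against 8.84, 9.20 and 8.99. CD2AP fell by 0.76 (SE 0.0617, adjusted p = 0.00282, held in 9 of 9), with no overlap between the groups. SORL1, a sorting receptor of the endosome and Golgi, fell by 0.76 as well, unevenly over the pairs (-0.35, -1.18 and -0.74; adjusted p = 0.0418), and held in 1 of 9. Its other probe set differed by -0.11 (adjusted p = 0.603).

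ADGRE5 encodes the adhesion receptor CD97, a G protein-coupled receptor reported to depend on WT1 in glioma cells. It read 7.73, 7.84 and 8.15 with the WT1 siRNA and 8.64, 8.61 and 8.46 with reagent. Without overlap between the groups, the difference was smaller in pair 3 (-0.31) than in pairs 1 and 2 (-0.91 and -0.77). ADGRE5 fell by 0.66 (SE 0.109, adjusted p = 0.0245). The call held in 5 of 9 fits and was lost without WT1 siRNA array 2, reagent array 1, reagent array 2 or scrambled siRNA array 2. With scrambled siRNA it read 8.70, 8.67 and 8.55, at the reagent level.

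Other deep falls were of genes of RNA handling, nuclear import and mitochondria. LSM14A, an RNA-binding protein of P-bodies, read 7.82, 8.0 and 8.58 against 8.77, 9.13 and 9.28, without overlap, and fell by 0.93 (SE 0.0873, adjusted p = 0.0051). All 3 of its probe sets were called, and the other 2 differed by -0.82 and -0.55. NKAPD1 read 6.34, 6.84 and 6.16 against 7.25, 7.58 and 7.48 and fell by 0.99 (SE 0.1, adjusted p = 0.0065, held in 9 of 9). KPNA4, an importin alpha that carries cargo into the nucleus, fell by 0.75 (adjusted p = 0.0321, held in 4 of 9), and its groups overlapped: array 1 of the WT1 siRNA read 5.4 and the others 6.61 and 6.54, against 6.47, 7.13 and 7.20. The other KPNA4 probe set was at -0.20 (adjusted p = 0.379). In mitochondria, NDUFA1, an accessory subunit of complex I, read 10.69, 10.32 and 10.86 against 11.52, 11.44 and 11.36 and fell by 0.82 (SE 0.108, adjusted p = 0.0104, held in 8 of 9). ISCA1, which assembles iron-sulfur clusters, read 8.6, 8.73 and 8.30 against 9.25, 9.42 and 9.17 and fell by 0.74 (SE 0.0675, adjusted p = 0.00509, held in 9 of 9). A second ISCA1 probe set fell by 0.37 (adjusted p = 0.0203, held in 4 of 9), and another at -0.34 did not pass (adjusted p = 0.065). DBT, a subunit of the complex that breaks down branched-chain keto acids, fell by 0.69 at 1 of its 4 probe sets (adjusted p = 0.00786), and the other 3 differed by -0.27 to 0.07. NQO1, a quinone reductase of the oxidative stress response, read 10.46, 10.79 and 10.96 against 11.51, 11.48 and 11.48 and fell by 0.75 (SE 0.0908, adjusted p = 0.00853, held in 8 of 9). The other NQO1 probe sets were at -0.41 and -0.39 and did not pass (adjusted p = 0.0567 and 0.0597). The neural protease gene PRSS12 read 6.23, 6.36 and 7.89 against 6.74, 7.07 and 8.80. Array 3 of each group was high, so the groups overlapped, and within pairs PRSS12 fell by 0.71 (adjusted p = 0.0186).

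**Figure D2:**
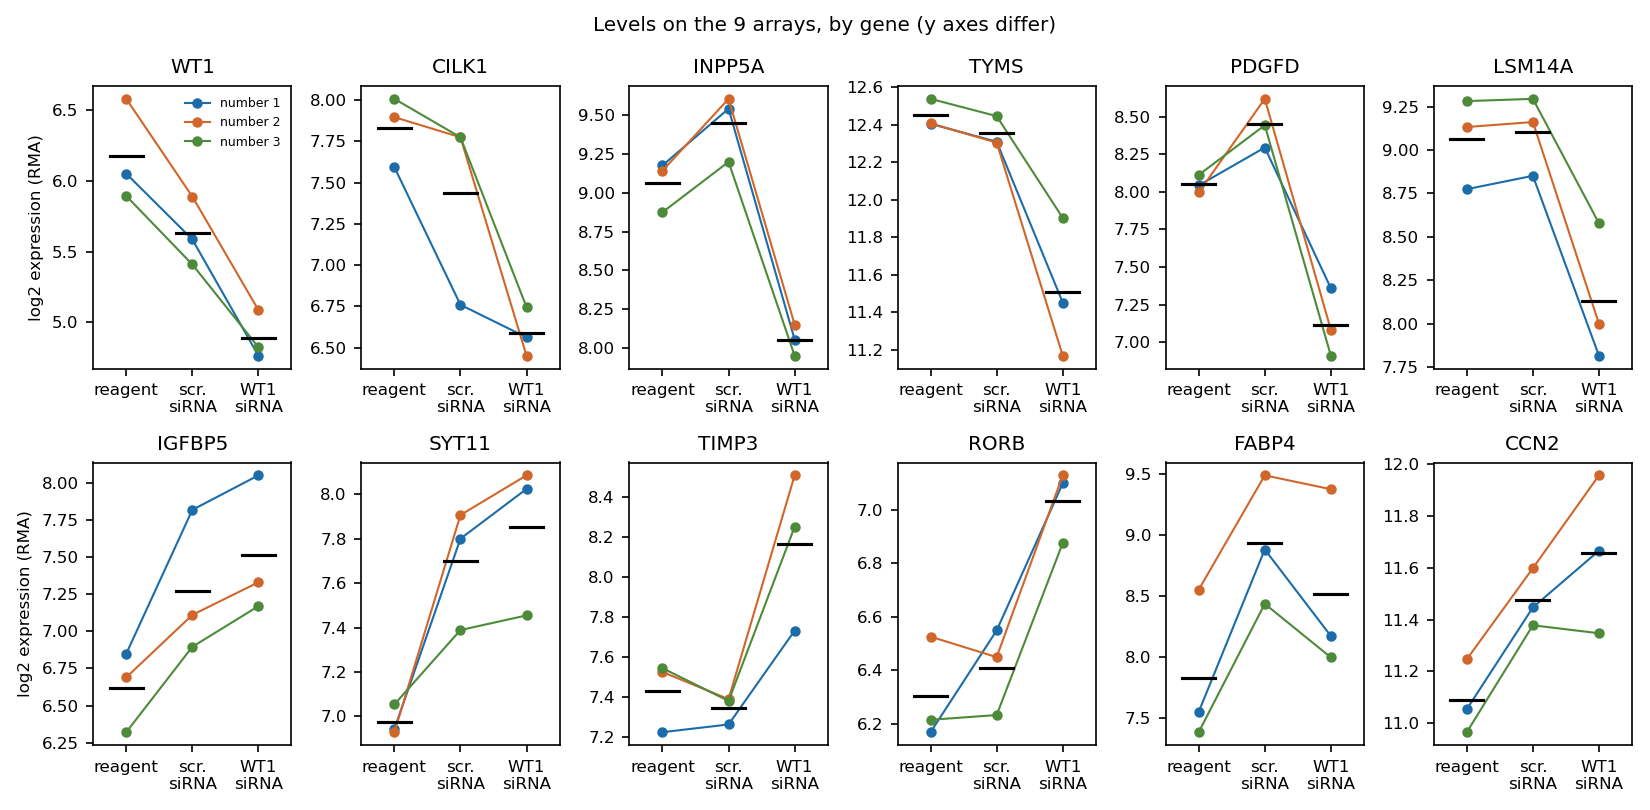
Log2 level of 12 of the named genes on all 9 arrays (y axes differ between panels). Lines join arrays with the same number and black bars are group means. WT1, CILK1, INPP5A, TYMS, PDGFD and LSM14A are lowest on the WT1 siRNA arrays under every number. The genes in the lower row are higher with the WT1 siRNA than with reagent under every number. For IGFBP5, SYT11, FABP4 and CCN2 the scrambled siRNA arrays lie above reagent under every number too.

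TYMS encodes thymidylate synthase, which makes the thymidine nucleotide for DNA synthesis. It read 11.45, 11.17 and 11.90 with the WT1 siRNA and 12.41, 12.41 and 12.54 with reagent. The reagent arrays lay close together and above all WT1 siRNA arrays, and TYMS fell by 0.94 (SE 0.106, adjusted p = 0.00786, held in 8 of 9). Scrambled siRNA left TYMS at 12.31, 12.30 and 12.45. A second TYMS probe set differed by -0.15 (adjusted p = 0.447). TYMS was 1 of 31 measured genes of nucleotide and one-carbon metabolism, the only one called, and 23 of the 31 lay below 0 with a median of -0.07.

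Genes of the G1/S transition and DNA replication gave the lowest median of the 43 gene lists, -0.13 (-0.08, -0.23 and -0.18 in pairs 1 to 3). Of 52 measured members 45 lay below 0, where 46.1% of all genes did, and 32 were below 0 in all 3 pairs. Called were 4, all lower, and 0 higher; over all 11963 genes, each by its brightest probe set, 1.4% were called, 1.02% lower and 0.376% higher. In bulk RNA a smaller share of cells in S phase and less RNA per cell cannot be told apart. MCM6, a subunit of the replicative helicase, read 9.56, 9.14 and 9.79 against 10.13, 10.16 and 10.23. The groups did not overlap, and MCM6 fell by 0.68 (SE 0.104, adjusted p = 0.0207, held in 7 of 9), beside -0.15 with scrambled siRNA. RPA2, a subunit of the single-strand DNA binding complex, read 8.91, 9.07 and 9.16 against 9.42, 9.54 and 9.38 and fell by 0.40 (adjusted p = 0.0366), beside 0.03 with scrambled siRNA. UNG, which removes uracil from DNA, read 9.20, 9.57 and 9.56 against 9.41, 10.00 and 10.15 and fell by 0.41 (adjusted p = 0.0375). For UNG scrambled siRNA gave 9.12, 9.64 and 9.77, close to the WT1 siRNA. E2F8, a repressor of the E2F family, fell by 0.65 (adjusted p = 0.0423) with pairs of -0.23, -1.0 and -0.71, beside -0.12 with scrambled siRNA. The calls of RPA2, UNG and E2F8 each held in 1 of 9 fits.

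Genes of G2/M and mitosis lay below 0 in 51 of 56 cases with a median of -0.11. Of the 56, 0 were called, where 1.4% of all genes were. The median was near 0 in pair 1, -0.14 in pair 2 and -0.17 in pair 3. The members with the smallest p were CCNA2, the cyclin of S phase and G2, at -0.34 (adjusted p = 0.0616) and PLK4, the kinase of centriole duplication, at -0.29 (adjusted p = 0.0869). CCNA2 read 9.61, 9.30 and 9.16 against 9.76, 9.72 and 9.61, and it passed without WT1 siRNA array 1 (-0.43, adjusted p = 0.0189). That fit gave 465 calls in all, and CCNA2 passed in only 3 of 21 alternative settings.

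The starts of TYMS and MCM6 are shown because both genes fell and because replication genes are known for binding sites of E2F factors. Each run is the RefSeq promoter of build GRCh38.p14, 250 bases before to 50 bases after the transcription start, written 5′ to 3′ on the strand of the gene. TYMS lies on the plus strand at chr18:657403-657702 and MCM6 on the minus strand at chr2:135876394-135876693. Capitals mark matches on either strand to TTTGGCGC or TTTCCCGC, spellings of the E2F motif.
TYMS: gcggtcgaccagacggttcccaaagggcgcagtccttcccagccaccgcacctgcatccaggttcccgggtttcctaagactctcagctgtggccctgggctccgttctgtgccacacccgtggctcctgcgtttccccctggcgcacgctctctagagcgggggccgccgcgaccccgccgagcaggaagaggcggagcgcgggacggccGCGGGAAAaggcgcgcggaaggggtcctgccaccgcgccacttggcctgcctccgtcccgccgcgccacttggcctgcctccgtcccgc
MCM6: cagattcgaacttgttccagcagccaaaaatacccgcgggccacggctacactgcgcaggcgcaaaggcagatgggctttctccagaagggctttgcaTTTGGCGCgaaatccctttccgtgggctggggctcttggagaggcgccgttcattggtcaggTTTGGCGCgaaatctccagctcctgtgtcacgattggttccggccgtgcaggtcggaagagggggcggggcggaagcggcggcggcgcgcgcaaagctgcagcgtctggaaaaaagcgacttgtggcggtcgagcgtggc
TYMS had 1 match, to TTTCCCGC on the opposite strand, and MCM6 had 2, both to TTTGGCGC. The promoter of UNG had 0 matches. Among the 45 replication genes with a promoter in the table, 22.2% held TTTGGCGC and 22.2% held TTTCCCGC, against 0.972% and 2.36% of 9563 promoters in all. Of the 131 promoters of genes called lower, 2.29% held TTTGGCGC and 3.82% held TTTCCCGC, and of the 52 of genes called higher 0 held either. GCGTGGG and GCGGGGG, motifs known for WT1 and EGR1 binding, were counted in the same way. The TYMS promoter held GCGGGGG, left in lower case in the run above. The UNG promoter held GCGTGGG and, on the opposite strand, GCGGGGG, and the MCM6 promoter held neither. GCGTGGG was in 10.7% of promoters of lower genes, 9.62% of higher genes and 8.92% of all, and GCGGGGG in 27.5%, 25% and 23.4%. These are matches of letters in a window and do not show binding.

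**Figure D3:**
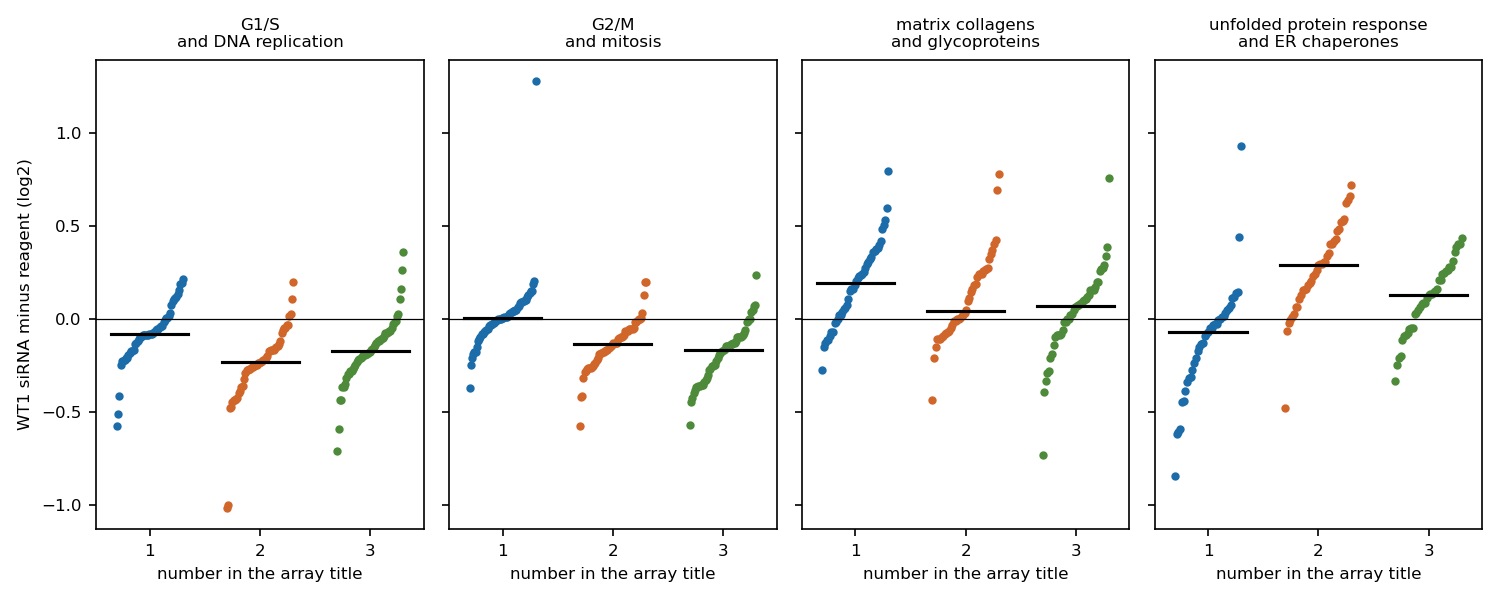
Difference between WT1 siRNA and reagent (log2, y axis) of each member of 4 gene lists under each number in the array title (x axis), with the list's median as a black bar. The replication genes lie mostly below 0 under all 3 numbers (medians -0.08, -0.23 and -0.18), the mitosis genes under numbers 2 and 3, and the genes of the unfolded protein response below 0 under number 1 (-0.07) and above it under 2 and 3 (0.29 and 0.13).

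Among the 15 genes with the greatest rises were secreted regulators of growth factors and of the matrix. IGFBP5, which binds insulin-like growth factors, read 8.05, 7.33 and 7.17 with the WT1 siRNA and 6.85, 6.69 and 6.32 with reagent. The groups did not overlap, and IGFBP5 rose by 0.90 (SE 0.102, adjusted p = 0.00786, held in 9 of 9), with 4 of 5 probe sets called. Scrambled siRNA raised IGFBP5 as well, by 0.66 (adjusted p = 0.0199), to 7.82, 7.11 and 6.90. The other called IGFBP5 probe sets were at 0.51, 0.58 and 0.64, and the last at 0.45 did not pass (adjusted p = 0.115). The one at 0.64 was the brightest (adjusted p = 0.0466). Its pairs were uneven (1.08, 0.55 and 0.28), and its call held in 1 of 9 fits. TIMP3, an inhibitor of metalloproteinases that is bound to the matrix, read 7.73, 8.51 and 8.25 against 7.22, 7.52 and 7.54 and rose by 0.73 (SE 0.106, adjusted p = 0.0162, held in 5 of 9). A second TIMP3 probe set rose by 0.55, and 2 further ones at 0.31 and 0.48 did not pass. With scrambled siRNA TIMP3 read 7.26, 7.39 and 7.38, near reagent. CCN2, a matricellular protein and a target of YAP, read 11.67, 11.96 and 11.35 against 11.05, 11.25 and 10.96. Both groups stood apart, and CCN2 rose by 0.57 (SE 0.0782, adjusted p = 0.0122, held in 6 of 9). LTBP3, which holds latent TGF-beta, rose by 0.56 (SE 0.0838, adjusted p = 0.0185, held in 5 of 9). Its reading on array 3 was high in every group (7.94 against 7.25 with reagent), so the groups overlapped.

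Further rises were of transcription factors and of genes of lipid handling. RORB, a nuclear receptor that acts on clock genes, read 7.10, 7.13 and 6.88 against 6.17, 6.53 and 6.21, without overlap, and rose by 0.73 (SE 0.0854, adjusted p = 0.00786, held in 8 of 9). MAFF, a small Maf factor, rose by 0.67 (SE 0.092, adjusted p = 0.0121, held in 7 of 9). SOX11, a factor of neural development, rose by 0.57 (SE 0.103, adjusted p = 0.0342, held in 3 of 9). The second MAFF probe set was at 0.11 (adjusted p = 0.562). The 3 SOX11 probe sets lay between 0.49 and 0.57, and 1 of them passed. For MAFF and SOX11 array 1 was low in both groups, so that the groups overlapped while each pair rose. SCD, the desaturase that makes oleic acid, read 9.52, 7.63 and 8.11 against 9.09, 7.06 and 7.38. Array 1 was high in both groups, and within pairs SCD rose by 0.58 (SE 0.0714, adjusted p = 0.00884), with 2 of 4 probe sets called. The other called SCD probe set was at 0.38, and another at 0.41 did not pass (adjusted p = 0.0687). The brightest SCD probe set was at 0.01 (adjusted p = 0.967), with pairs of 0.20, 0.12 and -0.28. FABP4, a fatty acid binding protein, read 8.17, 9.37 and 8.0 against 7.55, 8.55 and 7.38 and rose by 0.69 (SE 0.0983, adjusted p = 0.0154). With scrambled siRNA FABP4 was higher still, at 8.88, 9.49 and 8.43, a rise of 1.11 over reagent (adjusted p = 0.00274).

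The remaining rises among the 15 were of genes of signalling and vesicle traffic. SYT11, a synaptotagmin of vesicle traffic, read 8.02, 8.08 and 7.45 against 6.94, 6.93 and 7.05 and rose by 0.88 (SE 0.13, adjusted p = 0.0181), at both of its probe sets. The groups did not overlap, pair 3 (0.40) was below pairs 1 and 2 (1.08 and 1.16), and scrambled siRNA gave a rise of 0.72 (adjusted p = 0.0348). PCDH17, a protocadherin, rose by 0.67 with even pairs (0.74, 0.63 and 0.64). CAMK2N1, an inhibitor of the kinase CaMKII, rose by 0.64, and FYN, a Src family kinase, by 0.61 at 1 of 3 probe sets, with the others at 0.50 and 0.51. RABAC1, which binds Rab proteins, rose by 0.54, and EHD3, a protein of endosome recycling, by 0.53. The adjusted p of these 5 genes lay between 0.0117 and 0.0332. Their calls held in 7 of 9 fits for PCDH17, 6 for FYN, 4 for CAMK2N1, and 3 for RABAC1 and for EHD3.

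**Figure D4:**
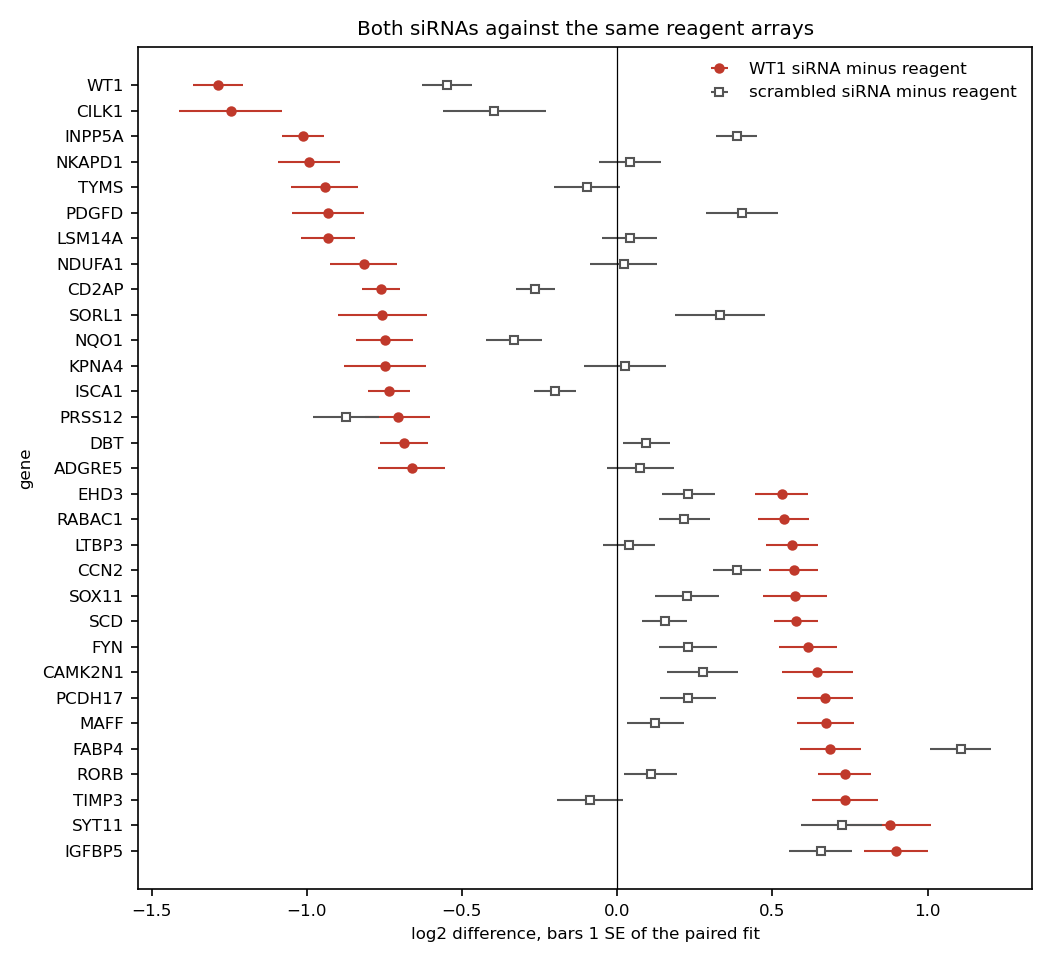
Change against the same 3 reagent arrays (log2, x axis) with the WT1 siRNA (red circles) and with scrambled siRNA (open squares) for the 15 lowest genes, ADGRE5 and the 15 highest genes. Bars are 1 SE of the paired fit. Since both use the same reagent arrays, the 2 values of a gene share their error. Scrambled siRNA lies near 0 for NKAPD1, TYMS, LSM14A, NDUFA1, KPNA4 and TIMP3, and beyond the WT1 siRNA for PRSS12 and FABP4.

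The scrambled siRNA comparison shares its reagent arrays with the present one, so its values are given side by side only. For the genes that fell, scrambled minus reagent was 0.04 for NKAPD1 and LSM14A, 0.02 for NDUFA1 and KPNA4, -0.10 for TYMS and 0.09 for DBT. It was -0.20 for ISCA1, -0.26 for CD2AP, -0.33 for NQO1 and -0.40 for CILK1. PDGFD and SORL1 read higher with scrambled siRNA than with reagent, by 0.40 (adjusted p = 0.17) and 0.33 (adjusted p = 0.409). PRSS12 fell by 0.87 with scrambled siRNA (adjusted p = 0.00779). For the genes that rose, it was 0.11 for RORB, 0.12 for MAFF, 0.15 for SCD, 0.04 for LTBP3, 0.39 for CCN2 and 0.22 to 0.28 for PCDH17, CAMK2N1, FYN, SOX11, RABAC1 and EHD3. NFIB, a factor of glial development named below, fell by 0.58 with the WT1 siRNA and by 1.24 with scrambled siRNA (adjusted p = 0.0003).

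How far these genes rested on single arrays was read from the leave-one-array fits. Without reagent array 2, 5 of the 15 lowest passed (highest adjusted p 0.221) and 1 of the 15 highest (0.202). Without WT1 siRNA array 2, 10 and 2 passed, and without reagent array 1, 12 and 5. Without WT1 siRNA array 1, 15 and 15 passed. The direction of all 30 genes was the same in the 9 fits, and no change moved by more than a factor of 1.5. The 30 were chosen as called with the same sign in all 3 pairs, so their stable direction is partly built in. Leaving out a scrambled siRNA array cannot move these changes at all. Of 53 further called genes, those of the lists below and those with 2 or more called probe sets, 0 passed without reagent array 2 (adjusted p 0.0532 to 0.216). Of the 53, 6 passed without WT1 siRNA array 2, 14 without reagent array 1, 14 without reagent array 3, and 22 to 41 without each of the other 5 arrays.

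**Figure D5:**
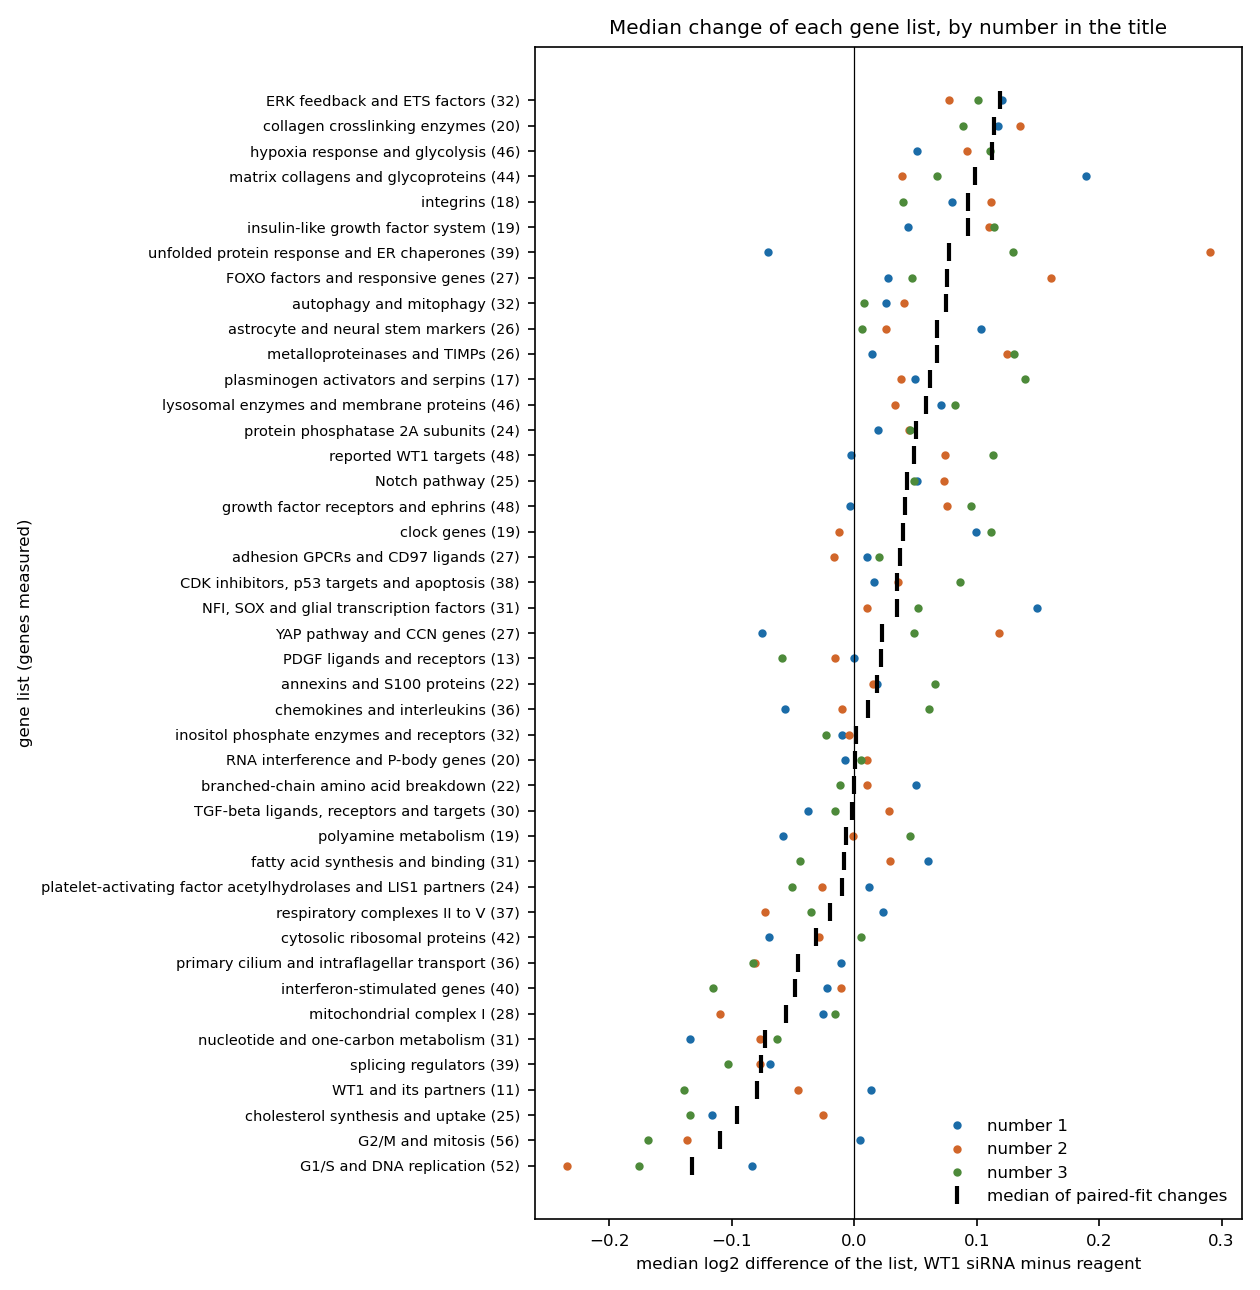
Median difference between WT1 siRNA and reagent (log2, x axis) of the 43 gene lists, with the number of genes measured; black bars are medians of the paired-fit changes and dots the medians under each number in the array title. Replication and mitosis lists lie lowest, at -0.13 and -0.11, and the ERK feedback, collagen crosslinking and hypoxia lists highest, at 0.12, 0.11 and 0.11.

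Among WT1 with its partners and among reported WT1 targets, 9.09% and 4.17% were called by the brightest probe set. Over all genes 1.4% were called, 1.02% lower and 0.376% higher, and the counts of calls in every list stand beside these shares. All lists were chosen with earlier results of these data known, so a share above 1.4% is no independent evidence about a list. Of 11 measured partners only WT1 itself was called by its brightest probe set. WTAP, a partner in the RNA methylation complex, read 8.63, 8.48 and 8.28 against 8.87, 8.78 and 8.69 and fell by 0.32 at 1 of 3 probe sets (adjusted p = 0.0417, held in 0 of 9), beside -0.10 with scrambled siRNA. Among 48 measured reported WT1 targets the median was 0.05, with ADGRE5 lower and IGF1R, the receptor of insulin-like growth factors, higher. ADGRE5 was placed in that list with results of these samples known and is no independent evidence there. IGF1R read 9.49, 9.74 and 9.58 against 9.14, 9.26 and 9.27, without overlap, and rose by 0.38 at 1 of 3 probe sets (adjusted p = 0.0279, held in 3 of 9), with the others at 0.20 and 0.15. With scrambled siRNA IGF1R read 9.15, 9.17 and 9.24. The insulin-like growth factor list had 2 of 19 called (10.5%), IGF1R and IGFBP5, both higher, and a median of 0.09. For IGFBP5 this rests on its brightest probe set, whose call held in 1 of 9 fits. Of 13 PDGF ligands and receptors only PDGFD was called, and the list's median was 0.02, below 0 after each array was centred on its median or after quantile normalisation.

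Of 44 collagens and matrix glycoproteins 33 lay above 0 (all genes 53.9%), 17 of them in all 3 pairs, with a median of 0.10 and 1 call. SPARC, a glycoprotein that binds collagen, read 12.56, 12.57 and 12.30 against 12.18, 12.20 and 12.04 and rose by 0.34 (adjusted p = 0.0283, held in 2 of 9), and with scrambled siRNA it read 12.51, 12.61 and 12.39. The second SPARC probe set was at 0.08 (adjusted p = 0.721), beside 0.58 with scrambled siRNA. COL4A2, a basement membrane collagen, rose by 0.33 at 1 of 2 probe sets (adjusted p = 0.0428, held in 1 of 9), beside 0.36 with scrambled siRNA. Of 20 collagen crosslinking enzymes 15 lay above 0 with a median of 0.11 and 0 calls. LOXL2, a lysyl oxidase, was at 0.27 (adjusted p = 0.0701), beside 0.33 with scrambled siRNA, and PPIB, a prolyl isomerase of the endoplasmic reticulum, at 0.26 (adjusted p = 0.115). ITGA5, the alpha chain of the fibronectin receptor, was the 1 call among 18 integrins (11 above 0, median 0.09) and the higher call among 27 adhesion receptors and CD97 ligands (15 above 0, median 0.04). It read 8.41, 9.01 and 8.52 against 7.97, 8.37 and 8.03 and rose by 0.52 (adjusted p = 0.0276, held in 3 of 9), beside 0.49 with scrambled siRNA.

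Metalloproteinases and TIMPs had a median of 0.07 over 26 genes, with TIMP3 the 1 gene called, at 2 probe sets other than its brightest. Plasminogen activators and serpins had 13 of 17 above 0, a median of 0.06 and 0 calls. PLAUR, the urokinase receptor, read 9.40, 9.94 and 9.64 against 9.31, 9.42 and 9.06, a difference of 0.39 (adjusted p = 0.128), beside 0.61 with scrambled siRNA (adjusted p = 0.036). Pair 1 (0.08) stood below pairs 2 and 3 (0.52 and 0.58), and without WT1 siRNA array 1 PLAUR was at 0.56 and passed (adjusted p = 0.015). That fit gave 465 calls in all, and PLAUR passed in only 2 of 21 alternative settings. SERPINE2, an inhibitor of thrombin and urokinase, was at 0.33 (adjusted p = 0.112), beside -0.13 with scrambled siRNA.

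Among growth signalling genes the ERK feedback and ETS list had the highest median, 0.12 (0.12, 0.08 and 0.10 in pairs 1 to 3), with 25 of 32 above 0. DUSP5, a phosphatase of ERK, rose by 0.52 (adjusted p = 0.0388), beside 0.64 with scrambled siRNA. ETV4, an ETS factor, read 6.10, 6.22 and 6.73 against 5.79, 5.84 and 6.29 and rose by 0.38 (adjusted p = 0.0233), beside 0.28 with scrambled siRNA. FOSL2, a subunit of AP-1, rose by 0.34 at 1 of 3 probe sets, beside 0.23 with scrambled siRNA, and PHLDA1 by 0.38 at 1 of 5, beside -0.02. The calls of FOSL2 and PHLDA1 held in 0 of 9 fits, that of DUSP5 in 2 and that of ETV4 in 3. Of 27 genes of the YAP pathway and CCN family, CCN2 and F3 were called, and the median of 0.02 fell below 0 after each array was centred on its median. F3, the tissue factor of coagulation, read 9.14, 9.77 and 9.25 against 8.84, 9.19 and 8.80 and rose by 0.44 (adjusted p = 0.0254, held in 4 of 9), beside -0.12 with scrambled siRNA. Of 30 TGF-beta genes LTBP3 rose and SMAD6, an inhibitory SMAD, fell by 0.33 at 1 of 4 probe sets (adjusted p = 0.0418, held in 0 of 9), beside -0.23 with scrambled siRNA, with 15 genes above and 15 below 0. Receptors and ephrins had 0 of 48 called and a median of 0.04; EFNB3 was at 0.32 (adjusted p = 0.0528) and EFNA4 at 0.32 (adjusted p = 0.0742). The Notch list had a median of 0.04 over 25 genes, while NOTCH2, a receptor, read 8.84, 9.29 and 8.93 against 9.17, 9.70 and 9.28 and fell by 0.37 (adjusted p = 0.0235), with a second of its 4 probe sets called at -0.40. With scrambled siRNA these NOTCH2 probe sets were at -0.06 and -0.09, and the calls held in 2 and 0 of 9 fits.

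Genes of the interferon response, of inflammation and of RNA interference had 0 calls by the brightest probe set, where 1.4% of all genes were called. At that share, 0 calls in lists of this size do not set them apart from other genes. Of 40 interferon-stimulated genes 0 were called by the brightest probe set, and the median was -0.05. ISG20, an exonuclease, rose by 0.37 at 1 of 2 probe sets (adjusted p = 0.0268, held in 2 of 9), beside 0.27 with scrambled siRNA. Of 36 chemokines and interleukins 0 were called, with IL15 at -0.29 (adjusted p = 0.143) and TNF at 0.18 (adjusted p = 0.252). Of 20 genes of RNA interference and P-bodies, a list without LSM14A, 0 were called and 10 lay above 0; DCP2, a decapping enzyme, was at -0.19 (adjusted p = 0.225) and AGO3, an Argonaute, at -0.18 (adjusted p = 0.291).

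In lipid metabolism calls went both ways. MSMO1, an oxidase of cholesterol synthesis, read 9.16, 9.57 and 10.46 against 9.86, 9.98 and 11.09. Array 3 was high in both groups, and within pairs MSMO1 fell by 0.58 (SE 0.0705, adjusted p = 0.00854, held in 8 of 9), beside -0.10 with scrambled siRNA. ABCA1, which exports cholesterol, rose by 0.46 at 1 of 3 probe sets (adjusted p = 0.0312, held in 1 of 9), beside 0.60 with scrambled siRNA. The cholesterol list had 15 of 25 below 0 and a median of -0.10. Among 31 genes of fatty acid synthesis and binding, FABP4 rose, and SCD rose only at probe sets other than its brightest. ACSL4, an acyl-CoA synthetase, fell by 0.47 (adjusted p = 0.0307, held in 3 of 9), beside -0.24 with scrambled siRNA. Of 24 platelet-activating factor acetylhydrolases and LIS1 partners 2 were called (8.33%, against 1.4% of all genes), both lower. Since the list was chosen with earlier results of these data known, that share is a description only. PAFAH1B1, which encodes LIS1, a regulator of dynein, read 8.79, 8.75 and 8.58 against 9.19, 9.30 and 9.18 and fell by 0.52 at 1 of 4 probe sets (SE 0.0611, adjusted p = 0.00786, held in 7 of 9), and with scrambled siRNA it read 9.30, 9.30 and 9.18. The other PAFAH1B1 probe sets lay between -0.44 and -0.24. PAFAH2, an acetylhydrolase, fell by 0.43 at 1 of 2 probe sets (-0.40, -0.43 and -0.46 in the pairs; adjusted p = 0.0121, held in 6 of 9), beside -0.13 with scrambled siRNA. The other PAFAH2 probe set was at -0.10 (adjusted p = 0.602). The INPP5A list of 32 inositol phosphate enzymes and receptors had no other call and a median of 0.00.

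Complex I, also a list chosen with earlier results known, had 2 of 28 called (7.14%, against 1.4% of all genes), both lower: NDUFA1 and NDUFB5. NDUFB5 fell by 0.45 (adjusted p = 0.0287, held in 2 of 9), beside -0.02 with scrambled siRNA. The median of the complex I list was -0.06, with 23 below 0. Complexes II to V had 0 of 37 called and a median of -0.02, with ATP5MC1 at -0.21 (adjusted p = 0.203) and ATP5PF at -0.16 (adjusted p = 0.262). Branched-chain amino acid breakdown had 11 genes above and 11 below 0, and DBT as its called gene. Of 46 hypoxia and glycolysis genes 39 lay above 0, 21 in all 3 pairs, with a median of 0.11. EPAS1, the hypoxia factor HIF-2 alpha, went the other way. It read 6.88, 7.95 and 6.81 against 7.39, 8.61 and 7.47 and fell by 0.61 (SE 0.0595, adjusted p = 0.00558, held in 8 of 9), while scrambled siRNA gave 7.74, 8.83 and 7.72. The other EPAS1 probe set was at -0.12 (adjusted p = 0.479). BNIP3L, a mitophagy receptor induced in hypoxia, rose by 0.37 at 1 of 2 probe sets (adjusted p = 0.0279, held in 2 of 9), beside -0.03 with scrambled siRNA. PINK1, the kinase that marks damaged mitochondria, rose by 0.36 and 0.43 at its probe sets (held in 1 of 9 each), beside -0.01 and 0.00 with scrambled siRNA. GABARAPL1, an autophagosome protein, rose by 0.39 at 1 of 2 (adjusted p = 0.0279, held in 3 of 9), beside -0.19. The autophagy list had 20 of 32 above 0 and a median of 0.08, the highest over the alternatives (0.02 to 0.08), with pair medians of 0.03, 0.04 and 0.01.

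The unfolded protein response list differed between pairs, with medians of -0.07, 0.29 and 0.13. PDIA3, a disulfide isomerase, read 11.41, 10.75 and 10.83 against 10.97, 10.11 and 10.43 and rose by 0.49 (SE 0.0722, adjusted p = 0.0178, held in 6 of 9), beside 0.14 with scrambled siRNA. EDEM1, which marks misfolded glycoproteins for disposal, fell by 0.37 (adjusted p = 0.0371, held in 1 of 9), beside -0.04. Of 46 lysosomal genes 30 lay above 0 with a median of 0.06. LIPA, the acid lipase, rose by 0.40 (adjusted p = 0.0342, held in 1 of 9), beside 0.02 with scrambled siRNA. IDS, a sulfatase, rose at 3 of 9 probe sets by 0.30 to 0.31, calls that held in 0 of 9 fits, and with scrambled siRNA the same probe sets were 0.33 to 0.55 above reagent. FUCA1, a fucosidase, fell by 0.45 (adjusted p = 0.0366, held in 1 of 9), beside 0.10 with scrambled siRNA. LAMP2, a lysosomal membrane protein, fell by 0.47 at 1 of 3 probe sets (adjusted p = 0.0184, held in 5 of 9), beside -0.56 with scrambled siRNA, while its others were at 0.11 and 0.10. Of 27 FOXO factors and responsive genes, CITED2, a transcriptional co-regulator, was called at both probe sets, with rises of 0.43 and 0.52 that held in 1 and 3 of 9 fits, beside -0.02 and 0.03 with scrambled siRNA.

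Regulators of fate, splicing and survival completed the lists. NFIB read 7.21, 7.40 and 7.96 against 7.72, 8.10 and 8.48, and 3 of its 7 probe sets were called, between -0.60 and -0.42, and held in 2 to 7 of 9 fits. The glial factor list had a median of 0.03 over 31 genes, with SOX11 and NFIB as its calls. Astrocyte and neural stem markers had 0 of 26 called; GJA1, a gap junction protein, was at 0.24 (adjusted p = 0.12) and SLC1A3, a glutamate transporter, at -0.22 (adjusted p = 0.108), beside 0.49 with scrambled siRNA. The lowest member was GFAP, the astrocyte filament protein, which is named after its values were seen. Its brighter probe set read 6.96, 5.36 and 8.13 against 6.79, 6.68 and 9.25, a difference of -0.76 (adjusted p = 0.168) that was present in pairs 2 and 3 and not in pair 1, beside -1.11 with scrambled siRNA. Of 19 clock genes RORB and BMAL1 were called; BMAL1, a core activator, read 6.33, 6.42 and 6.30 against 5.98, 5.84 and 5.93 and rose by 0.43 (adjusted p = 0.0186, held in 5 of 9) at 1 of 2 probe sets, beside 0.10 with scrambled siRNA. Splicing regulators lay below 0 in 31 of 39 cases with a median of -0.08, and CLK4, a kinase of splicing factors, fell by 0.39 (adjusted p = 0.0279, held in 3 of 9), beside -0.04 with scrambled siRNA. FAS, a death receptor and p53 target, read 5.63, 5.54 and 5.15 against 6.08, 6.20 and 5.79, without overlap, and fell by 0.58 at 1 of 4 probe sets (SE 0.0728, adjusted p = 0.00923, held in 7 of 9), beside -0.33 with scrambled siRNA. The other FAS probe sets lay between -0.31 and -0.24. FAS was the 1 call among 38 CDK inhibitors, p53 targets and apoptosis genes, whose median was 0.04. SAT1, which acetylates polyamines, rose by 0.50 (adjusted p = 0.00983, held in 7 of 9), beside 0.09 with scrambled siRNA, at 1 of 3 probe sets, as the called gene of 19 in polyamine metabolism (median -0.01). Cilium genes had CILK1 as 1 call in 36 and a median of -0.05.

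The last lists had 0 called genes, where 1.4% of all genes were called by the brightest probe set. Cytosolic ribosomal proteins lay below 0 in 34 of 42 cases by small amounts (median -0.03), with RPL11 at -0.14 (adjusted p = 0.281) and RPL9 at -0.13 (adjusted p = 0.315). Annexins and S100 proteins had a median of 0.02, which turned below 0 after each array was centred on its median. ANXA3 was at -0.29 (adjusted p = 0.163) and S100A11 at 0.24 (adjusted p = 0.0908). Subunits of protein phosphatase 2A had a median of 0.05 over 24 genes, with the scaffold subunits PPP2R1A at 0.25 (adjusted p = 0.128) and PPP2R1B at 0.22 (adjusted p = 0.146).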

How the data were processed

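The authors deposited log2 expression values per probe set for 9 Affymetrix arrays, made with RMA (background correction, normalisation between arrays and summary of probes) per the submitters' processing notes. No version of the software and no chip definition is named there. Of 22277 probe sets 62 chip controls were left out, which left 22215. Probe annotation gave 1 gene symbol for 19064 probe sets (11963 genes), several for 1043 and none for 2108. Looking up 19052 of them by gene ID changed 0 symbols.

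Groups and numbers came from the array titles. The log2 values were fitted as deposited with limma 3.58.1 in R 4.3.3 (lmFit, contrasts.fit, eBayes), on all 9 arrays with 1 mean per group and the replicate number as a block, which leaves 4 residual degrees of freedom. Tests were two-sided, with Benjamini-Hochberg adjustment over the 22215 probe sets, and an adjusted p under 0.05 was called. The pairing is the one in the titles. It was checked on deviations from group means: arrays of the WT1 siRNA and reagent groups correlated at 0.647 to 0.796 for the 3 pairs of the same number and at -0.529 to -0.031 for the 6 others. Deviations within a group cancel out, so the negative sign of the 6 is built in once the 3 are positive, and the 6 add no separate evidence for the pairing. Precision is limited by the number of arrays. The fit was tested on simulated data.

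In the 43 lists a gene stood by its brightest probe set. Named were WT1, ADGRE5, the 15 lowest and 15 highest called genes, every list member called at any probe set, and, where none was called, up to 2 members with the smallest p. For the 30 genes the called probe set with the greatest change was used. The comparison and the lists were chosen with earlier results of these data known. Alternatives changed the block, the arrays fitted, the scaling, a filter on the lowest 25% of levels, the prior variance, the adjustment and the probe set for a gene. Figures used matplotlib 3.10.9.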

Additional observations from a re-analysis of the deposited data

How the results depend on the processing

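With the replicate block on 9 arrays 277 probe sets were called, 91 higher and 186 lower. With no replicate block, that is without the pairing, 0 were called, 0 higher and 0 lower, and WT1 kept its change of -1.29 with an adjusted p of 0.394. The 6 arrays alone with the block gave 3 calls, 0 higher and 3 lower, and without the block 0, with WT1 at an adjusted p of 1. Leaving out 1 array gave 6 to 465 calls, 1 to 160 higher and 5 to 305 lower. Leaving number 3 out of all groups gave 55 calls, 22 higher and 33 lower. Leaving out number 2 gave 0 calls, 0 higher and 0 lower (2151 at an unadjusted p under 0.05), with WT1 at -1.18 (adjusted p = 0.0762). A prior variance with a trend on level gave 552 calls, 199 higher and 353 lower. The other scalings, the filter on dim probe sets, the robust prior and the adjustment over probe sets with 1 symbol gave 277 to 337 calls. Over 2226 repeats of the named genes, 0 changed sign, 806 lost a call and 14 gained one. Most named genes were chosen by their calls, and some settings change only the prior variance or the adjustment. The lack of sign changes is therefore partly built in. Of 946 repeats of list medians 73 moved by more than the spread over pairs, and 26 of 43 lists kept their sign throughout. With 3 cultures a group, changes near the median size of called genes rest on the estimate of the spread from all 9 arrays.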

Other observations

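Several genes outside the lists were called at 2 or more probe sets, which measure different stretches of a transcript; they were chosen here after their values were seen. MFN1, which fuses mitochondrial outer membranes, fell at 3 of 3 probe sets, by 0.44 to 0.61. HDGFL3 fell at 3 of 5. CLCC1, a chloride channel of the endoplasmic reticulum, fell at both probe sets, by 0.62 and 0.67. RFC1, the large subunit of the clamp loader of DNA replication, fell at 2 of 3, by 0.35 and 0.39. ATP2C1, the calcium pump of the Golgi, fell at 2 of 4, and RAP2C, a small GTPase, at 2 of 2. The transcription factor gene ZBTB20 fell at 2 of 4, by 0.56 and 0.57, and read 0.85 and 0.92 below reagent with scrambled siRNA. Higher were DKK3, a secreted protein of the Dickkopf family, by 0.41 and 0.49 at 2 of 5 probe sets, and TPM4, a tropomyosin, by 0.37 and 0.39 at 2 of 2. In the 9 leave-one-array fits, the calls of MFN1 held in 4 to 8, HDGFL3 in 6, CLCC1 in 6 and 7, RAP2C in 3 and 7, and DKK3 in 5 and 8. Those of RFC1 held in 3 and 2, ATP2C1 in 5 and 0, ZBTB20 in 2 and 3, and TPM4 in 2 and 1.

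Of 124 called genes with more than 1 probe set, 99 had all of them on the same side of 0, 26 had at least 2 called and 14 had all called. The 124 were chosen for having a call, and probe sets of a gene read the same RNA samples. Their agreement is therefore partly built in, and the shares over all genes with more than 1 probe set were not counted. The differences of the pairs correlated only weakly across all probe sets, between 0.13 and 0.36 for the 3 combinations of pairs. These values are a description over probe sets, which are not independent.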
